A study of Mus musculus with 8 samples.

Results

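The proteasome is the protease that degrades proteins marked with ubiquitin in every cell. Its barrel, the 20S core, is built from rings of alpha subunits, which form the gate, and rings of beta subunits, some of which cut peptides. The 19S particle caps the barrel: the ATPases of its base unfold the substrate and its lid removes the ubiquitin. Dedicated chaperones put both parts together. Interferon gamma and TNF can induce an alternative set of catalytic subunits and a cap, which form the immunoproteasome, whereas the constitutive set is made in resting cells and can be raised by the transcription factor Nrf1, encoded by Nfe2l1. Immune cells and gland epithelium both hold proteasomes.

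The constitutive proteasome genes were taken as the protein-coding genes whose symbol starts with Psm, a letter from a to g and a digit. The 5 interferon-inducible genes Psmb8, Psmb9, Psmb10, Psme1 and Psme2 were left out. Of the 54532 genes in the deposited count table, 45 met this rule, and 43 of them passed the filter on low counts and were tested. They were 7 alpha subunits (Psma1 to Psma7), 7 beta subunits (Psmb1 to Psmb7), 9 subunits of the 19S base, 8 of the lid, 7 assembly factors and 3 genes of other activators or inhibitors. A further 2 genes were subunits of single tissues, Psma8 and Psmb11, and neither passed the filter. The symbol also matched 2 genes that are not constitutive subunits, Psmc3ip, a factor of meiotic recombination, and Psme2b, a gene that resembles the inducible activator gene Psme2.

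Prostate tissue of 8 male mice of the inbred strain NOD/ShiLtJ, which develops autoimmune diabetes and inflammation of the prostate, was sequenced in bulk. The sample titles name the prostate and no lobe. The 4 etanercept-treated mice (animal numbers 17, 19, 50 and 52) were injected with 4 mg/kg of etanercept, a decoy receptor that captures TNF, and the 4 control mice (1, 3, 65 and 69) with the PBS vehicle. Both groups had 2 injections per week for 5 weeks from an age of 25 weeks, and tissue was taken at 30 weeks. No gene was modified in either group, and the study pooled diabetic with non-diabetic animals, so the treatment is compared over mice that may differ in disease. The question was how blocking TNF alters expression in the inflamed prostate, here of the protein degradation machinery.

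The total count was 25178942 in control 1, 14088213 in control 3, 13760669 in control 65 and 18870437 in control 69. It was 17739635 in etanercept 17, 19698140 in etanercept 19, 17437320 in etanercept 50 and 14246828 in etanercept 52. Expression is given as CPM, the count per 1000000 counts of the library after TMM scaling, which makes most genes level across libraries. Fold changes are log2 values of etanercept over control, so that negative values stand for lower expression with etanercept.

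The tissue label was checked against markers. Secretory genes of the prostate (6 of 6 passed the filter) were present in every mouse, and their summed level was lowest in control 1, at 12883 CPM, and highest in control 69, at 246343 CPM. The most abundant of them over all mice was Sbp, which encodes spermine-binding protein, with 1547, 63887, 15637 and 225760 CPM in control 1, 3, 65 and 69 and 1618, 174099, 180220 and 55954 CPM in etanercept 17, 19, 50 and 52. Mice of both groups were thus found at both ends of the range. The 4 seminal vesicle genes Svs2, Svs4, Svs5 and Pate4 summed to 97191 CPM in etanercept 17, mostly from Svs2, and to 3998 CPM in control 69 and 667 CPM in etanercept 50. All 4 were at 0 in control 1 and control 3, and their sum was at most 26.8 CPM in the other 3 mice. The 4 skeletal muscle genes Acta1, Ckm, Myh4 and Tnnt3 summed to 67.6, 1617, 198 and 518 CPM in control 1, 3, 65 and 69 and to 686, 719, 1033 and 1311 CPM in etanercept 17, 19, 50 and 52. Acta1, the most abundant of them, was highest in etanercept 52, at 1288 CPM, whereas Ckm, Myh4 and Tnnt3 were highest in control 3. Myh4 was at 353 CPM in control 3 and 1.27 CPM in control 65, and at 0 in the other 6 mice. Etanercept 17 stands apart by seminal vesicle RNA and control 3 by these 3 muscle genes, and values without them are given below.

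In the quasi-likelihood test of edgeR over 15472 genes, 0 of the 43 tested members had an adjusted p up to 0.05, and 0% of all genes did. With DESeq2, 0 members had such an adjusted p against 0.113% of all genes. Before adjustment, edgeR gave p up to 0.05 for 4 members that were lower with etanercept (Psmc5, Psmd4, Psmg4 and Psme2b), beside 3.63% of all tested genes, and for 1 that was higher (Psmd1), beside 2.99%. Of these 43 members, DESeq2 gave the same 4 as lower before adjustment, beside 3.6% of all genes, and 0 as higher, beside 2.24%; its value for Psma8, outside the 43, is given below. The log2 fold change was below 0 in 30 of the 43 members, which is 69.8%, beside 51% of all genes. Its median over the members was -0.14, beside -0.0099 over all genes. Every etanercept mouse was below every control mouse in 3 members, Psma2, Psmd4 and Psme2b, a pattern seen in 2.53% of all genes. The opposite pattern was seen in 0 members and in 2.41% of all genes.

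The constitutive subunits were measured more tightly than most genes. All 31 tested subunits of the 20S core and the 19S particle had a 95% confidence interval of the log2 fold change within -1 to 1, so that a doubling or a fall to 50% lay outside the interval of each. The same held for 81.2% of the 2774 genes in the same range of mean expression, from 53.6 to 277 CPM. The spread between mice of a group, as the SD of log2(CPM + 1), had a median of 0.20 over these 31 subunits and 0.27 over the 2774 genes. Over all 43 tested members, 39 had an interval within -1 to 1.

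**Figure D1:**
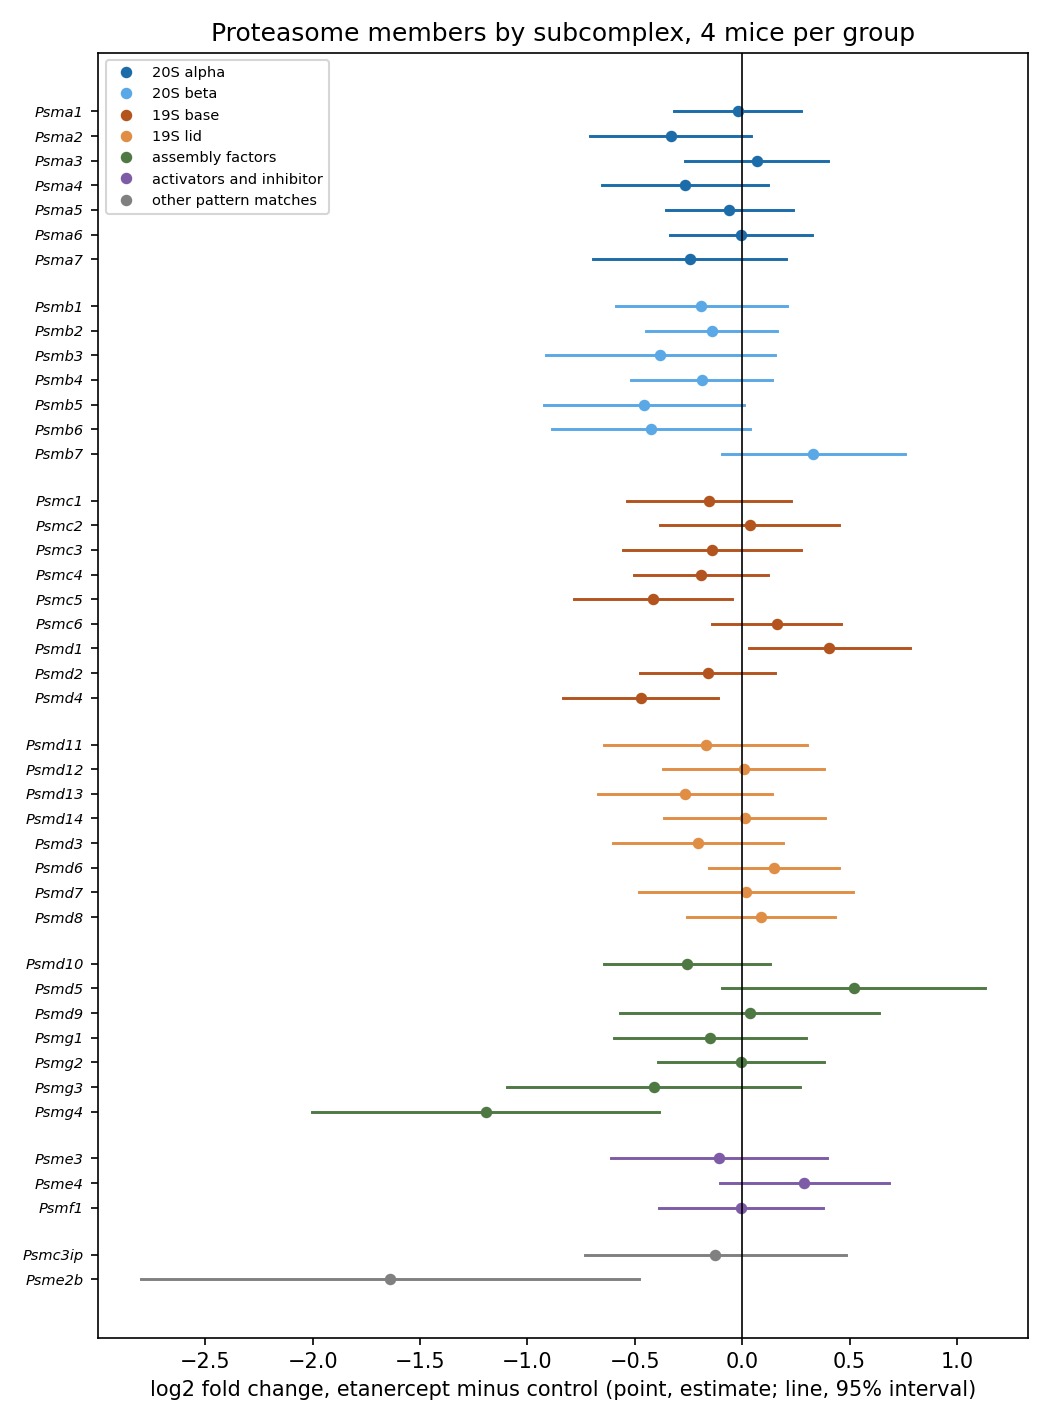
Log2 fold change of each tested member (etanercept over control, 4 mice per group), with its 95% confidence interval from edgeR's quasi-likelihood fit, grouped and coloured by subcomplex. Intervals of the 20S and 19S subunits lie within -1 to 1, and the widest interval is that of Psme2b, -2.80 to -0.48.

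The share of a library taken by the members together ranged from 0.397% to 0.525%. It was 0.525% in control 1 (95% Wilson interval 0.522% to 0.527%), 0.499% in control 65, 0.440% in control 3 and 0.400% in control 69. It was 0.399% in etanercept 17, 0.397% in etanercept 19, 0.402% in etanercept 50 and 0.411% in etanercept 52. The etanercept-treated mice lay close together, control 1, 3 and 65 lay above all of them and control 69 lay among them. This share is not scaled and also depends on how much of a library other genes fill. The secretory genes filled most in control 69, etanercept 19 and etanercept 50. In etanercept 17 they summed to 15467 CPM and the seminal vesicle genes to 97191 CPM. Whether the share follows the secretory or the seminal vesicle genes was not tested. Such intervals cover counting error only. In whole tissue, fewer cells with much proteasome RNA and less proteasome RNA per cell cannot be told apart.

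In the 20S core, 12 of 14 subunits had a log2 fold change below 0 and 0 had an unadjusted p up to 0.05 in edgeR or DESeq2 with all mice and the settings used throughout. Other settings of edgeR did give such a p: for Psmb5 with RLE or upper-quartile scaling, library size alone, the stricter filter, protein-coding genes only, or without control 3, control 69 or etanercept 52. They also did for Psma2 with library size alone or GC correction, for Psmb6 without control 3, control 69 or etanercept 17, and for Psma4, Psmb3 and Psmb7 without control 69. The 7 alpha subunits, which form the outer rings and the gate of the barrel, had a median log2 fold change of -0.060, which lay between -0.15 (library size alone) and 0.0033 (trend with gene length removed) over the alternatives. Among them Psma2 (ENSMUSG00000015671, chr13:14613240-14674236, + strand) differed most. It was at 199, 147, 147 and 150.4 CPM in control 1, 3, 65 and 69 and at 105, 137, 135 and 134 CPM in etanercept 17, 19, 50 and 52. The groups did not overlap, but control 1 was far above the other controls, etanercept 17 was far below the other treated mice, and the remaining 6 mice lay within a narrow range. Its log2 fold change was -0.33 (SE 0.17), with an adjusted p of 0.772 in edgeR, and -0.52 after GC correction. Psma4 and Psma7, further ring subunits, had log2 fold changes of -0.27 (SE 0.17) and -0.24 (SE 0.20). Psma7 was at -0.12 without control 1 and at -0.11 after GC correction. Psma1 and Psma6, at -0.020 and -0.0063, were close to 0 and changed sign between alternatives.

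The 7 beta subunits, which form the inner rings, had a median log2 fold change of -0.19, and 6 of 7 were below 0. The 3 of them that cut peptides differed in sign. Psmb6 (ENSMUSG00000018286, chr11:70525367-70527858, + strand), the caspase-like subunit, was at 278, 174, 220.4 and 158 CPM in control 1, 3, 65 and 69 and at 185, 143, 142 and 149 CPM in etanercept 17, 19, 50 and 52. Psmb5 (ENSMUSG00000022193, chr14:54614119-54618022, - strand), the chymotrypsin-like subunit, was at 77.5, 52.9, 72.6 and 56.7 CPM in the same controls and at 33.1, 53.3, 47.1 and 55.6 CPM in the same treated mice. For both genes control 1 and control 65 were highest, while control 3 and control 69 lay within or near the treated range, so that the groups overlapped. The log2 fold change was -0.42 (SE 0.21) for Psmb6 and -0.46 (SE 0.21) for Psmb5, with adjusted p of 0.765 and 0.743 in edgeR. It was -0.27 for Psmb6 without control 1, and -0.25 for Psmb5 with the length trend removed, so both were smaller there. Leaving out each mouse gave -0.53 to -0.27 for Psmb6 and -0.55 to -0.32 for Psmb5.

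Psmb7 (ENSMUSG00000026750, chr2:38588036-38644087, - strand), the trypsin-like subunit, was on the other side of 0. It was at 50.6, 43.6, 61.2 and 78.0 CPM in control 1, 3, 65 and 69 and at 75.8, 75.5, 70.0 and 72.5 CPM in etanercept 17, 19, 50 and 52. The 4 treated mice were nearly level, control 1, 3 and 65 were below them and control 69 was above them. This gave a log2 fold change of 0.33 (SE 0.19), with an adjusted p of 0.802 in edgeR. It was smaller after GC correction, 0.16, and without control 3, 0.21, and larger without control 69, 0.50, where the unadjusted p passed 0.05 in edgeR. Its exons share 405 positions with Nek6, a kinase gene on the other strand, and the counting did not use strand. Nek6 itself was at between 3.44 and 15.1 CPM, with a log2 fold change of -0.12 (SE 0.50).

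The subunits of 1 core can be set against each other within a library without any scaling. These ratios were chosen after the values had been seen and were not tested. They were not corrected for gene length or GC content, whose trends a ratio within a library does not remove. Psmb5, Psmb6 and Psmb7 have 899, 1872 and 3421 exon positions. The ratio of Psmb6 to Psmb7 counts was 5.50 in control 1, 3.98 in control 3, 3.60 in control 65 and 2.03 in control 69. It was 2.44 in etanercept 17, 1.90 in etanercept 19, 2.03 in etanercept 50 and 2.05 in etanercept 52. Control 1, 3 and 65 lay above every treated mouse, and control 69 lay within the treated range. The ratio of Psmb5 to Psmb7 counts gave the same order of groups, with 1.53, 1.21, 1.19 and 0.726 in control 1, 3, 65 and 69 and between 0.437 and 0.767 in the treated mice.

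**Figure D2:**
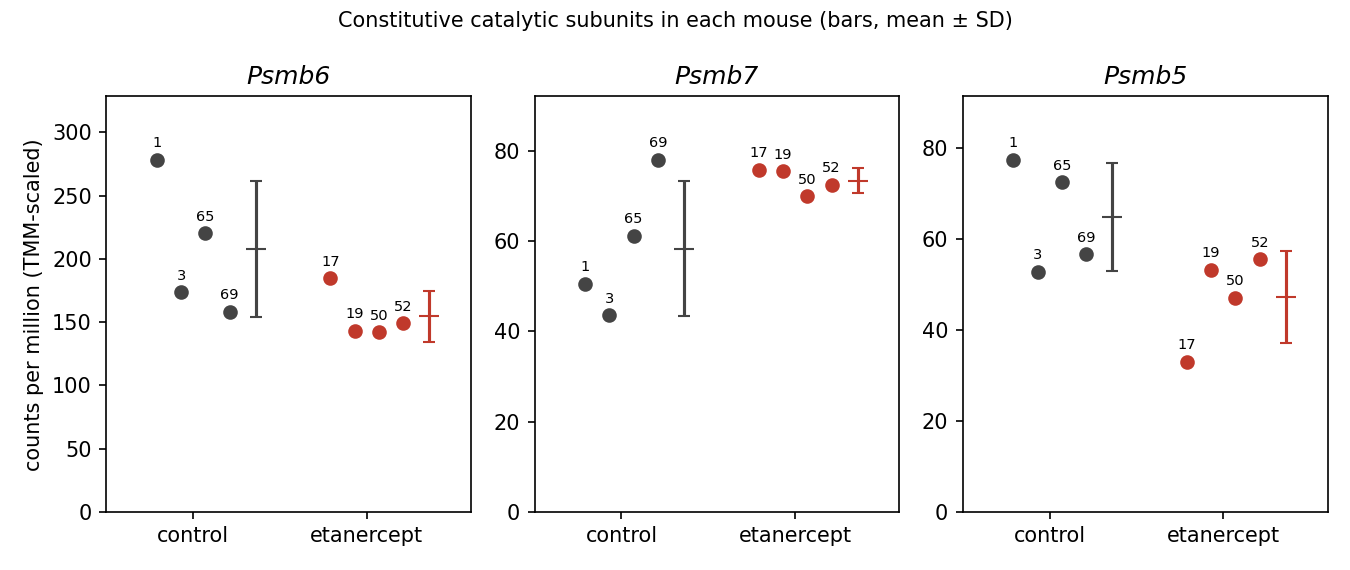
CPM after TMM scaling of the catalytic subunit genes Psmb6, Psmb7 and Psmb5 in each mouse (points, labelled with the animal number), with the mean and SD of each group as bars (n = 4 mice). Control 69 lies among the treated mice for Psmb6, at 158 CPM, and just above them for Psmb7, at 78.0 CPM, and control 1 is highest for Psmb6 and Psmb5.

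Each of these catalytic subunits has an inducible counterpart that takes its place in the immunoproteasome. All 5 inducible genes left out by the rule were below 0 with p up to 0.05 before adjustment in edgeR, beside 3.63% of all genes, with a median log2 fold change of -0.91, and 0 of 5 passed the adjusted threshold. The ratio of inducible to constitutive counts was compared between the groups for the 3 pairs, with an exact two-sided permutation test over the 70 assignments of the mice and adjustment over the 3 ratios. The ratio of Psmb10 to Psmb7 was 2.94, 2.27, 1.69 and 0.695 in control 1, 3, 65 and 69. It was 0.792, 0.622, 0.891 and 0.634 in etanercept 17, 19, 50 and 52. Control 1, 3 and 65 lay above every treated mouse and control 69 among them. The log2 ratio of Psmb10 to Psmb7 differed by -1.20 (exact permutation p = 0.0857, adjusted p = 0.214), and by between -1.62 (without control 69) and -0.93 (without control 1) when a mouse was left out.

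The ratio of Psmb9 to Psmb6 was 0.616, 0.656, 0.487 and 0.327 in the controls and 0.367, 0.232, 0.437 and 0.347 in the treated mice, with the mice in the order used above. Control 69 again lay among the treated mice, below the other 3 controls. The difference in log2 ratio was -0.58 (exact permutation p = 0.143, adjusted p = 0.214), and between -0.79 (without control 69) and -0.40 (without etanercept 19). The ratio of Psmb8 to Psmb5 was 3.27, 3.15, 1.83 and 0.990 in the controls and 2.51, 1.03, 1.55 and 1.06 in the treated mice. This pair had another order, since etanercept 17 was above control 65 and control 69 was below every treated mouse. The difference was -0.53 (exact permutation p = 0.314, adjusted p = 0.314), and between -0.89 (without control 69) and -0.32 (without control 1). The smallest p that 4 mice against 4 can give is 0.0286, and 0 of the 3 ratios passed 0.05.

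Marker genes give the make-up of each sample. Of 8 leukocyte genes, 8 had a log2 fold change below 0, beside 51% of all genes. Cd3e and Cd68 were lower with an unadjusted edgeR p up to 0.05, beside 3.63%. Their summed level was 100.3, 379.8, 143 and 93.6 CPM in control 1, 3, 65 and 69. In etanercept 17, 19, 50 and 52 it was 168, 95.7, 135 and 76.1 CPM. Control 3 was highest, with the B cell gene Cd79a as its largest part. The T cell gene Cd3e was at 10.6, 19.6, 14.2 and 6.95 CPM in control 1, 3, 65 and 69 and at 6.46, 5.72, 7.23 and 5.34 CPM in etanercept 17, 19, 50 and 52. For Cd3e control 1, 3 and 65 lay above every treated mouse and control 69 among them. The 4 adipocyte genes and the 3 basal epithelial genes were also all below 0, with 3 and 1 of them at an unadjusted p up to 0.05. The 4 smooth muscle genes were all above 0, with 2 at an unadjusted edgeR p up to 0.05, beside 2.99% of all genes. Their sum was lowest in control 1, at 3020.1 CPM, and highest in etanercept 52, at 11012 CPM. The part of tissue composition in the proteasome values was not tested.

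The 19S particle was mixed. Of its 17 subunits, 9 had a log2 fold change below 0. The base, which holds the ring of ATPases and the ubiquitin receptors, had a median of -0.16 with 6 of 9 subunits below 0, and of -0.095 with the length trend removed. Psmd4 (ENSMUSG00000005625, chr3:95032694-95042614, - strand), a ubiquitin receptor, was at 198, 135, 177 and 159 CPM in control 1, 3, 65 and 69 and at 129, 125, 122 and 107 CPM in etanercept 17, 19, 50 and 52. All 4 treated mice were below all 4 controls, and the groups were closest between control 3 and etanercept 17. The log2 fold change was -0.47 (SE 0.16), with a 95% interval of -0.83 to -0.11 and an adjusted p of 0.739 in edgeR. It ranged from -0.56 to -0.40 when each mouse was left out in turn.

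Psmc5 (ENSMUSG00000020708, chr11:106256154-106263120, + strand), an ATPase of the ring, was at 211, 140.3, 173 and 161 CPM in control 1, 3, 65 and 69 and at 131, 141, 121 and 120.0 CPM in etanercept 17, 19, 50 and 52. Etanercept 19 and control 3 were nearly equal, and all other treated mice lay below all other controls. This gave a log2 fold change of -0.42 (SE 0.16), with an adjusted p of 0.739 in edgeR. Its unadjusted p did not pass 0.05 without control 1, etanercept 50 or etanercept 52, where the log2 fold change was -0.32, -0.39 and -0.39, or with the length trend removed, where it was -0.28. Psmd1 (ENSMUSG00000026229, chr1:86064387-86139151, + strand), a scaffold subunit of the base, had values in the other direction, with 79.6, 82.0, 72.3 and 113 CPM in control 1, 3, 65 and 69 and 122, 114, 109 and 114 CPM in etanercept 17, 19, 50 and 52. Control 69 was again within the treated range and the other 3 controls were below it. Psmd1 had a log2 fold change of 0.41 (SE 0.17), with an adjusted p of 0.739 in edgeR. Its unadjusted p passed 0.05 with all mice and without control 69. It did not pass when any other mouse was left out, after length or GC correction, or with DESeq2. Its log2 fold change there was 0.39 with DESeq2, 0.34 after GC correction, 0.30 after length correction and 0.31 to 0.43 without each of the other mice, so it kept its direction. Exons of Psmd1 share 252 positions with Htr2b on the other strand, which was at most 0.538 CPM. They also share 301 positions with Gm21972 on the same strand, which had 0 counts in every mouse.

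The lid had a median log2 fold change of 0.0083, with 3 of 8 subunits below 0, and no stable sign. It was below 0 with DESeq2, with RLE and upper-quartile scaling, with library size alone (-0.071) and after GC correction (-0.083). It was also below 0 without control 1 (-0.065), control 3 (-0.021), control 65 (-0.036), etanercept 19 (-0.056), etanercept 50 (-0.053) or etanercept 52 (-0.027). The 95% interval of Psmd14, the enzyme that removes ubiquitin from the substrate, was -0.36 to 0.39 around 0.011. Psmd11, a scaffold subunit of the lid, had a log2 fold change of -0.17 (SE 0.21), Psmd3 -0.21 (SE 0.18), Psmd13 -0.27 (SE 0.18), Psmd6 0.15 (SE 0.14) and Psmd7 0.018 (SE 0.22). Leaving out each mouse gave -0.29 to -0.047 for Psmd11, -0.30 to -0.094 for Psmd3 and -0.38 to -0.16 for Psmd13. Etanercept 17 was the lowest mouse for 4 of the 8 lid genes. The median deviation of the 8 lid genes from their means over all mice was -0.37 in etanercept 17 on the log2 scale. It lay between 0.050 and 0.12 in the other treated mice and between -0.083 and 0.22 in the controls. In the same mouse the 7 beta subunits deviated by 0.065, above the other 3 treated mice. Without etanercept 17, the mouse with much seminal vesicle RNA, the median log2 fold change of the lid was 0.12, that of the beta subunits -0.28 and that of all members -0.084.

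**Figure D3:**
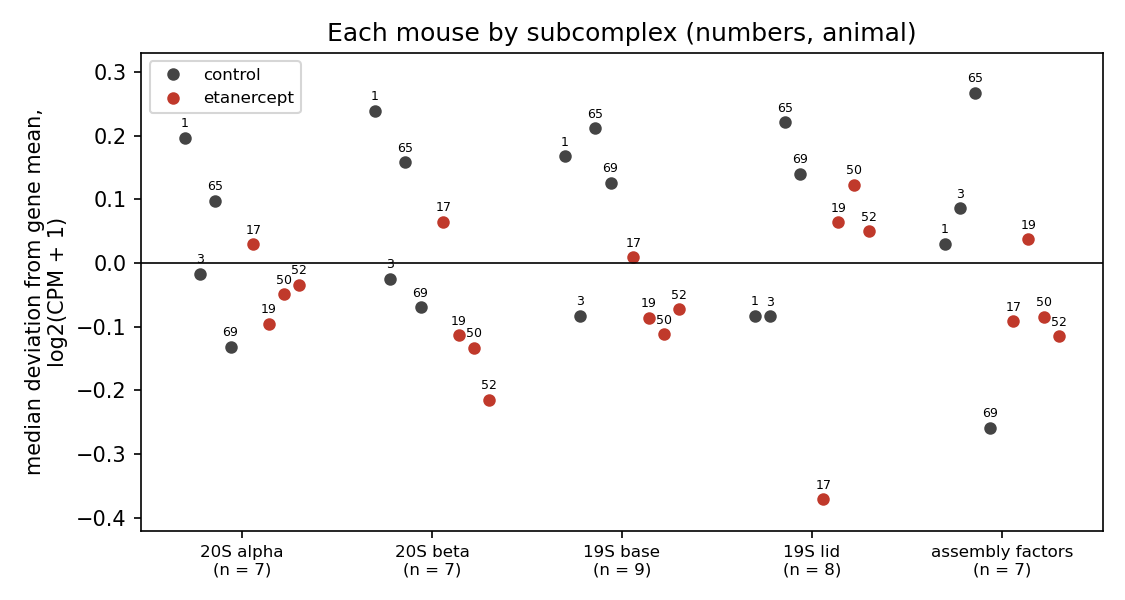
Median deviation of each mouse from the gene means over all mice, in log2(CPM + 1), for the tested genes of each subcomplex (points, labelled with the animal number). For the lid etanercept 17 is at -0.37, while the other treated mice lie between 0.050 and 0.12; groups overlap in every subcomplex.

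Taken over all 43 tested members, this deviation was 0.064, -0.031, 0.16 and 0.055 in control 1, 3, 65 and 69. It was -0.092, -0.052, -0.031 and -0.066 in etanercept 17, 19, 50 and 52. The treated mice were all below 0, 3 controls were above 0, and control 3 was level with etanercept 50. Control 1 and control 65 were each the highest mouse for 12 of the 43 members (27.9%), against 19.2% and 10.6% of all genes. Etanercept 17 was the lowest for 11 (25.6%), against 18.3% of all genes.

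Assembly factors are chaperones that leave the finished particle. They had a median log2 fold change of -0.15, with 5 of 7 below 0, which ranged from -0.26 without control 1 to -0.065 with the length trend removed. Psmg4 (ENSMUSG00000071451, chr13:34162964-34178173, + strand), a chaperone of the alpha ring, had the largest difference of all subunit and chaperone genes. It was at 35.6, 25.3, 30.9 and 10.2 CPM in control 1, 3, 65 and 69 and between 9.84 CPM (etanercept 52) and 14.5 CPM (etanercept 50) in the treated mice. Control 1, 3 and 65 were well above every treated mouse and control 69 was among the treated mice. Psmg4 had a log2 fold change of -1.19 (SE 0.36), with an adjusted p of 0.739 in edgeR. The ring chaperones differed among themselves, since the partner of Psmg4, Psmg3, had a log2 fold change of -0.41 (SE 0.30), and Psmg1 and Psmg2, which act earlier on the same ring, had -0.15 and -0.0056; these 3 were named after their values had been seen.

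The base chaperones were spread around 0. Psmd5 had the most positive log2 fold change of all members, 0.52 (SE 0.27), with 47.1, 55.2, 52.1 and 100.4 CPM in control 1, 3, 65 and 69 and 69.1, 113, 106 and 76.5 CPM in etanercept 17, 19, 50 and 52. Control 69 was in the upper treated range and the other 3 controls were below every treated mouse. Its adjusted p was 0.782 in edgeR, and its log2 fold change was 0.83 without control 69. Psmd9 and Psmd10, which also hold base ATPases during assembly, had log2 fold changes of 0.034 (SE 0.27) and -0.26 (SE 0.17). After GC correction Psmd10 was at -0.41, with an unadjusted p up to 0.05 in edgeR. The exons of Psmd9 share positions with a noncoding gene on the other strand, so its level is uncertain.

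Control 69 thus lay within the treated range for Psmd1, Psmd5, Psmg4 and the ratios of Psmb5 and Psmb6 to Psmb7, and above it for Psmb7. Without this mouse, edgeR gave an unadjusted p up to 0.05 for 8 lower members (Psma4, Psmb3, Psmb5, Psmb6, Psmc5, Psmd4, Psme2b and Psmg4), beside 5.98% of all genes, and 3 higher ones (Psmb7, Psmd1 and Psmd5), beside 5.45%. The shares of all genes were thus larger as well than with all mice. In that fit 0 members passed the adjusted threshold in edgeR and the smallest adjusted p of a member was 0.274. Leaving out any other mouse gave between 3 and 6 members lower, beside 2.49% to 3.95% of all genes, and 0 higher, beside 1.64% to 3.15%. Without control 3, which stands apart by Ckm, Myh4 and Tnnt3, 6 were lower, beside 3.03% of all genes, and the median log2 fold change of all members was -0.14.

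Among the other activators and inhibitors, Psme3 encodes a nuclear cap of the core, Psme4 a large cap linked to chromatin and Psmf1 an inhibitor of the core. Their log2 fold changes were -0.11 (SE 0.22), 0.29 (SE 0.18) and -0.0051 (SE 0.17), and the adjusted p of edgeR was at least 0.822 for all 3. Psma8 replaces an alpha subunit in male germ cells. It had 0 counts in all 4 controls and 20, 7, 10 and 0 counts in etanercept 17, 19, 50 and 52, so that 3 of 4 treated mice held a trace of it. The filter of edgeR removed it, and DESeq2 gave an unadjusted p of 0.0193 and an adjusted p of 0.530. The log2 fold change fitted by DESeq2, 5.68, rests on controls at 0 counts and does not measure the size of the difference. A count of 0 allowed a level of up to 0.211 CPM in control 65, the shallowest library, and of up to 0.108 CPM in control 1. Psmb11, the thymus subunit, had 0 counts in all 8 mice.

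Of the genes that only share the symbol, Psme2b (ENSMUSG00000078153, chr11:48945354-48946190, - strand) had the most negative log2 fold change of all members, -1.64 (SE 0.52), with a 95% interval of -2.80 to -0.48 and an adjusted p of 0.739 in edgeR. It was at 9.04, 6.80, 6.27 and 6.77 CPM in control 1, 3, 65 and 69 and at 2.27, 1.76, 4.36 and 0.832 CPM in etanercept 17, 19, 50 and 52. The groups did not overlap. Psme2b has 1 block of 837 exon positions that spans the whole gene, and whether reads of Psme2 were counted on it was not tested. Psme2 itself was at 240.1, 152, 149 and 90.9 CPM in control 1, 3, 65 and 69 and 115, 91.2, 90.4 and 95.4 CPM in etanercept 17, 19, 50 and 52, with a log2 fold change of -0.69 (SE 0.26). Psmc3ip had a log2 fold change of -0.13 (SE 0.27).

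Levels were compared between genes per kilobase of exon (FPKM). The order depended on whether the union of all exons or the principal transcript gave the length, and places named here are those of the mean over all 8 mice, with both lengths except where stated. Psmb7 was the lowest beta subunit, at 17.1 ± 4.38 FPKM in controls and 21.5 ± 0.795 FPKM in treated mice (mean ± SD, n = 4), against 115 ± 10.6 and 101 ± 7.84 FPKM for Psmb4, the highest with the union of exons. Psmd11 was the lowest subunit of the lid, at 10.2 ± 2.57 and 9.02 ± 1.39 FPKM. Psmd7, a lid subunit paired with Psmd14, was highest there with the union of exons, at 69.5 ± 16.6 and 70.4 ± 13.9 FPKM. Assembly factors had a lower median level than each group of subunits. With the union of exons, the median over the 7 factors was 13.5 FPKM, against 45.4 FPKM over alpha, 62.5 FPKM over beta, 51.2 FPKM over base and 26.8 FPKM over lid subunits. With the principal transcript it was 17.4 FPKM, against 78.3, 157, 70.9 and 49.7 FPKM in the same order. Psmg4 was the highest of the assembly factors, at 46.0 ± 19.8 FPKM in controls and 20.1 ± 4.08 FPKM in treated mice, and Psmd9 the lowest, at 2.79 ± 0.709 and 2.86 ± 0.766 FPKM. Psme3 was above Psme4 and Psmf1 in both groups. Within the treated mice alone, 2 of these places did not hold with the principal transcript, where Psmb5 (52.6 FPKM) was below Psmb7 (63.3 FPKM), and Psmg2 (25.2 FPKM) and Psmd5 (20.8 FPKM) were above Psmg4 (20.1 FPKM).

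Short and long members were also set side by side. Of the 21 members with fewer exon positions than the median of the members (2808 nt), 18 were below 0, with a median log2 fold change of -0.16, and of the other 22, at or above it, 12 were below 0, with a median of -0.012. Psmg4 and Psmb5, with 555 and 899 exon positions, are short, and Psmd1 and Psmd5, with 7265 and 7230, are long. With the trend of each mouse with gene length removed, 27 of 43 members were below 0, beside 53.5% of all genes, and the median log2 fold change was -0.093 beside -0.035 over all genes. Psmd4, Psmg4 and Psme2b were lower with p up to 0.05 before adjustment, beside 3.58% of all genes, and 0 members were higher, beside 2.03%, whereas Psmc5 and Psmd1 had a larger p. Without this correction 51% of all genes were below 0, with a median of -0.0099. The correction thus moved all genes as well, and the split by length is not given as a trait of the members alone.

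Other genes of the pathway gave the following counts in the same fit, in which 0 passed the adjusted threshold. Of 9 proteins bound to the proteasome or helping its assembly, 5 were below 0 and 1 of them, Sem1, a small subunit of the lid, was lower with p up to 0.05 before adjustment, beside 3.63% of all genes, with a log2 fold change of -0.54 (SE 0.17). Pomp, the chaperone of the beta ring, had -0.33 (SE 0.21), which was smaller without control 1, at -0.19, and without etanercept 52, at -0.22. Of 4 genes of the Nrf1 route, 1 was below 0: Nfe2l1 had a log2 fold change of -0.084 (SE 0.21), with 398, 353, 486 and 554 CPM in control 1, 3, 65 and 69 and 358, 519, 423 and 388 CPM in etanercept 17, 19, 50 and 52. The groups overlapped over most of their range. Of 14 ubiquitin genes and shuttles, 4 were below 0 and 1, Ubqln2, which carries ubiquitylated proteins to the proteasome, was higher with p up to 0.05 before adjustment, beside 2.99% of all genes, with a log2 fold change of 0.38 (SE 0.15).

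Nrf1 binds antioxidant response elements, so the promoters of the members were searched for the core TGACNNNGC on both strands, where N is any base. Promoters were the 250 bases before and 50 bases after the start of a gene, from RefSeq (GRCm38.p6), and 37 of the 45 members had one. The core was found in 6 of 37 members (16.2%) and in 14.0% of all 27025 genes with a promoter. These were Psmb5, Psmb6, Psmc6, Psmd12, Psmd9 and Psme4, of which Psmb5 and Psmb6 had a log2 fold change below 0 and the other 4 above 0, although among these 4 only Psme4 kept its sign in every alternative looked at: Psmd9 and Psmd12 also fell below 0 when a mouse was left out, and Psmc6 was at -0.036 after GC correction. The median was 0.020 over these 6 and -0.16 over the 30 tested members with a promoter but no core, of which 23 were below 0. The CCAAT box, CCAAT, was found in 14 of 37 members (37.8%) and in 41.1% of all genes, and TATAAA in 3 of 37 members (8.11%) and in 15.7% of all genes. A match describes letters and shows no binding. The stretches around the core are shown for Psmb5 (chr14:54617996-54618082, - strand) and Psmb6 (chr11:70525308-70525356, + strand), chosen as the catalytic subunits among the 6, written 5′ to 3′ up to the base before the RefSeq start, with the core in capitals.
Psmb5: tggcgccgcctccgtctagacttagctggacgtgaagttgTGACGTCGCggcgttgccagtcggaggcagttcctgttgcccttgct
Psmb6: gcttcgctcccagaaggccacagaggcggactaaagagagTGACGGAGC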

How the data were processed

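The authors extracted RNA from frozen prostate tissue, selected poly(A) RNA and sequenced paired reads of 150 nt. Per the submitters' processing notes they used fastp, STAR 2.6.1d, featureCounts 1.5.0-p3 and DESeq2 1.26.0 with mm10; the annotation used for counting is not given in the sources used here. They deposited whole-number counts per gene and mouse, without normalization and counted without strand. The counts of the 12 of 45 members whose exons overlap another gene, on either strand, are uncertain. Symbols, positions and lengths came from GENCODE M21 (GRCm38), which held 54495 of 54532 identifiers.

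edgeR 4.0.16, under R 4.3.3, fitted the counts by glmQLFit after TMM scaling and filterByExpr (minimum count 10). The p of glmQLFTest was adjusted by Benjamini-Hochberg over the 15472 genes kept; the code was tested on simulated data. Standard errors were taken from the fold change and its F statistic. Ratios used counts plus 0.5 and exact two-sided permutation tests (scipy 1.17.1). The alternatives tried were DESeq2 1.42.0, scaling by RLE, by upper quartiles or by library size only, looser and stricter filters, a robust fit, and lowess correction (span 0.3) for gene length or GC content. Further ones were a block for animal numbers under 20 against those over 49, a fit of protein-coding genes, and fits that each lacked 1 mouse. Ratios were also formed with a pseudocount of 1 CPM, from length-corrected FPKM and without each mouse. The principal transcript length, members without exon overlap and the ratios among catalytic subunits were added after the data had been seen.

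Members, lists and tests were chosen with earlier results of these data known. Named genes were a fixed list (catalytic subunits, Psmd4, Psmd11, Psmd14, Psme3, Psme4, Psmf1, Psma8, Psmb11, Nfe2l1 and Pomp) and, per subcomplex, the 3 with the smallest p and the highest and lowest FPKM. The most positive and the most negative fold change and every member removed by the filter were added. Any other gene either belongs to a count or is said to be chosen once its value was known. Paaf1 had no matching symbol.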

Additional observations from a re-analysis of the deposited data

Results flagged for a closer look

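A value was set apart where its gap to the nearest mouse of its group took up most of the range of the group (Dixon's ratio), which chance gives in about 1 in 20 groups of 4; 9 of 78 groups had such a value. Etanercept 17 accounted for 5 of the 9. Its Psma2 level, 105 CPM, and its Psmd6 level, 68.1 CPM, were far below those of the other treated mice. Its Psma6 level, 106 CPM, and its Psmb6 level, 185 CPM, were far above them. The median deviation of its lid genes was -0.37 on the log2 scale, far below the others. Etanercept 17 is also the mouse with most seminal vesicle RNA; whether the 2 are related was not tested.

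Control 69 had the highest Psmd5 level of the controls, 100.4 CPM, and the highest Psmf1 level, 58.0 CPM. Control 1 had the highest Psma2 level, 199 CPM. Etanercept 50 had the highest Psmg4 level of the treated mice, 14.5 CPM.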

How the results depend on the processing

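No member passed an adjusted p of 0.05 in any alternative; the smallest was 0.208, for Psme2b with DESeq2, and 21 of 29 named genes with a fit kept the sign of their fold change throughout. The median of all members was below 0 in all alternatives and lowest, at -0.22, with library size alone, where the median of all genes was -0.094. When each mouse was left out in turn it lay between -0.16 and -0.084, and between 3 and 8 members were lower (2.49% to 5.98% of all genes) and 0 to 3 higher (1.64% to 5.45%) with p up to 0.05 before adjustment. The single higher member, Psmd1, was lost (0 members) with DESeq2, with the length or the GC trend removed, and among members without exon overlap; the last leaves Psmd1 out, and for the others the cause was not tested. Outside the 29 named genes, Psmg2 changed sign to 0.10 with the length trend removed, and Psmd12 to -0.012 with DESeq2 and -0.046 after GC correction. Among the 29 named genes signs reversed as follows, and the cause was not tested. With DESeq2, Psmd14 was at -0.0067. With RLE factors, Psmd14 was at -0.0070. With upper-quartile factors, Psmd14 was at -0.014 and Psmd7 at -0.00053. With library size alone, Psmd14 was at -0.073, Psmd7 at -0.050 and Psmd9 at -0.053. With the length trend removed, Psma1 was at 0.0033, Psma6 at 0.15 and Psmd9 at -0.065; with the GC trend removed, Psmd14 was at -0.13. Leaving out a mouse gave ranges from -0.078 to 0.016 for Psma1, -0.086 to 0.036 for Psma6, -0.063 to 0.13 for Psmd14, -0.13 to 0.13 for Psmd7, -0.11 to 0.17 for Psmd9, -0.22 to 0.10 for Psme3, -0.078 to 0.12 for Psmf1 and -0.20 to 0.037 for Nfe2l1, which was above 0 without control 69. With animal number as a block, 0 members passed the adjusted threshold. No paired analysis was possible because the mice of the groups share no animal number. Depth limits what can be said of Psma8 and Psmb11, which the filter removed.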
